A study of Mus musculus with 46 samples.

Results

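The 8 genes described here belong to the mouse MS4A (membrane-spanning 4A) family and are Ms4a4a, Ms4a4b, Ms4a4c, Ms4a6b, Ms4a6c, Ms4a6d, Ms4a7 and Ms4a8a. They were chosen, with earlier results of these data known, as family members known from myeloid cells and T cells. They are 8 of the 48795 genes in the expression table. MS4A proteins cross the membrane several times and sit at the surface or in the inner membranes of immune cells, where they associate with receptors and tune their signaling. The best known relatives are Ms4a1, which encodes CD20 of B cells, and Ms4a2, which encodes the beta chain of the high-affinity IgE receptor of mast cells. In tumors, Ms4a4a and Ms4a7 are known from macrophages, Ms4a4b from T cells and NK cells, and Ms4a8a from macrophages of the alternatively activated kind.

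RNA from bulk tissue was sequenced in 46 samples of MC-38, a mouse colon carcinoma line grown in culture or as a subcutaneous tumor in female C57BL/6 mice aged 8 to 10 weeks. The antibody study held 3 cultures, 3 baseline tumors, and tumors of mice given an isotype control or PD-1 Ab (muDX400) at 5 mg/kg, with 5 tumors per treatment after 1 dose (day 4 of treatment in the labels, day 11 post-implant in the methods) and 5 after 2 doses (day 8, day 15 post-implant). In the tamoxifen study, 10 tumors came from mice labelled PD-1cKO (Rosa26-creERT2, Pdcd1 fl/fl) and 10 from littermate WT mice, and both groups received tamoxifen at 40 mg/kg. The labels place these tumors at day 28, and the methods at day 22. The creERT2 sits in the Rosa26 locus, which is active in most cell types of the host, and in which cells Pdcd1 was deleted was not measured here.

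The values are FPKM (sequenced fragments of a gene, scaled by its length and by the total of the library), so levels of different genes may be compared, and the depth of each library is unknown. The sum of FPKM over all genes was 440865 to 569885 per sample in the antibody study except in isotype control day 11 replicate 1, where it was 818006 and mitochondrial genes held 54.6% of it. In the tamoxifen study the sums were 598599 to 1224462, and short noncoding RNAs held 30.2% to 66.5%. Their median share was 45.3% in WT tumors and 54.0% in tumors labelled PD-1cKO. In the antibody study they held 0.00496% to 0.0746%. The targeted gene, Pdcd1, was at 5.05 to 19.9 FPKM in tumors labelled PD-1cKO and at 1.71 to 7.02 FPKM in WT tumors. A gene-level value cannot separate the 2 floxed exons from the rest, so it does not check the label. The paper checked the deletion at the protein level, by flow cytometry of T cells from tumors. It reports that by day 22 post-implant very few CD4 or CD8 T cells of PD-1cKO mice carried PD-1, against most of them in WT mice.

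All 8 genes lie in a cluster on chromosome 19 (GRCm38), where 19 Ms4a genes span 679 kb from 10962293 to 11640851. From the low end the members are Ms4a8a (chr19:11067471-11081102, minus strand), Ms4a7 (chr19:11321039-11336146, minus), Ms4a4a (chr19:11375523-11392790, plus), Ms4a4c (chr19:11404770-11427246, plus), Ms4a4b (chr19:11443553-11467055, plus), Ms4a6c (chr19:11469366-11482192, plus), Ms4a6b (chr19:11516512-11531256, plus) and Ms4a6d (chr19:11586604-11604849, minus). The members are close copies in part, and Ms4a4b and Ms4a4c were the pair most alike in coding sequence. Their coding sequences, 678 bases each, were identical at 622 positions (91.7%). The first 75 coding bases are shown because they hold the start codon and let the pair be compared base by base, with capitals at the 6 positions that differ (GENCODE M21; chr19:11449919-11449993 and chr19:11414817-11414891, both on the plus strand and each in 1 exon).
Ms4a4b: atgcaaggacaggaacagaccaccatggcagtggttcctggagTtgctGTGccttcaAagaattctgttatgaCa
Ms4a4c: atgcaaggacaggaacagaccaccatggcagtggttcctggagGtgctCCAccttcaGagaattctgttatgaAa

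The likeness extended upstream of the RefSeq start sites. The RefSeq starts of Ms4a4c and Ms4a6b, and the second start of Ms4a7, lie inside the GENCODE genes given above, so their windows do too. RefSeq promoter windows of the 250 bases before the start (GRCm38.p6) were found for 7 of the 8 members, in 8 windows, as Ms4a7 has a second start. Of the 28 pairs of windows, 2 aligned over most of their length, Ms4a6b with Ms4a6c (148 of 172 aligned bases, 86.05%) and Ms4a4b with Ms4a4c (117 of 132 aligned bases, 88.6%), while no other pair had an alignment score above 13.5. The upstream stretches of Ms4a4b (chr19:11443422-11443552) and Ms4a4c (chr19:11407528-11407659), both on the plus strand, are shown because these neighbours differed in direction in the PD-1cKO comparison. Capitals mark the bases that differ or have no partner in the alignment, in which 116 of 131 paired bases were identical.
Ms4a4b: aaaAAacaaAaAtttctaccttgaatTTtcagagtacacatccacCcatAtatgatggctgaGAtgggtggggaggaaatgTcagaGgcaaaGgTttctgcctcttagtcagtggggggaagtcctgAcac
Ms4a4c: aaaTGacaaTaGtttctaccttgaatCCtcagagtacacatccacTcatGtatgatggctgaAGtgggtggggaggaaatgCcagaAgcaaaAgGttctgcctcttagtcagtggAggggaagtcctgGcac

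Within the Ms4a6 branch the coding sequences were identical at 86.4% of aligned bases for Ms4a6b and Ms4a6c, 81.8% for Ms4a6b and Ms4a6d, and 79.6% for Ms4a6c and Ms4a6d. Their first 75 coding bases (chr19:11520339-11520413 for Ms4a6b and chr19:11471105-11471179 for Ms4a6c, both plus) carried 13 differences, again in capitals, and are shown because this pair had the highest correlation between members across tumors.
Ms4a6b: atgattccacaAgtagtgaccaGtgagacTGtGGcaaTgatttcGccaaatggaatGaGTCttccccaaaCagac
Ms4a6c: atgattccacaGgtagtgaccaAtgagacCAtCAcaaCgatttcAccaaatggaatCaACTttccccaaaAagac

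Copies this close can exchange reads of 50 bases. Of all 50-base stretches of the annotated transcripts, 8.19% in Ms4a4c and 2.40% in Ms4a4b also occurred in another gene, mainly in each other, against 3.57% in Ms4a6b, 2.54% in Ms4a6d, 0.306% in Ms4a7 and none in Ms4a4a or Ms4a8a. Ms4a6c shared 51.4%, nearly all of it with BE692007, a noncoding gene on the opposite strand that overlaps it (chr19:11470166-11484578). The library kit kept strand, but whether counting used it is not given in the sources used here. BE692007 stood at a median of 16.3% to 23.7% of the Ms4a6c FPKM in the 5 tumor groups of the antibody study, at 1.04% in WT tumors and at 4.87% in tumors labelled PD-1cKO, and without strand the reads of the shared stretches cannot be told apart. The level of Ms4a6c is therefore uncertain, and levels of the studies are not set against each other.

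Cultured MC-38 cells carried almost none of these transcripts, and in the tumors all but Ms4a8a were at 0.960 FPKM or more in every sample. Ms4a4a, Ms4a4b, Ms4a4c, Ms4a6b, Ms4a7 and Ms4a8a were listed at 0 in the 3 cultures. Ms4a6c was listed at 0 in 2 cultures and at 0.0393 FPKM in the other, and Ms4a6d was at 0.0603, 0.0663 and 0.0816 FPKM. In isotype control tumors of day 15 the lowest value of the members other than Ms4a8a was 1.98 FPKM, of Ms4a4b. Because the cultures lay at or near 0, the members entered the fit only through their tumor values, and no test of this difference is given. The cultures also lacked the macrophage genes Adgre1, Itgam, C1qa, C1qb, C1qc and Trem2, which were at 0 in all 3, and the 16 macrophage and monocyte markers summed to 2.91 to 3.53 FPKM. Ms4a8a was low in tumors too, at 0.493 ± 0.195 FPKM (SD, n = 5) in isotype control tumors of day 15, and in baseline tumors it was at 0.0896, 0 and 0.0846 FPKM. The related Tmem176a and Tmem176b, which encode membrane proteins of similar build, were present in culture (25.2 ± 0.822 and 61.7 ± 0.971 FPKM, SD, n = 3) and passed the limits in none of the 7 comparisons.

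**Figure D1:**
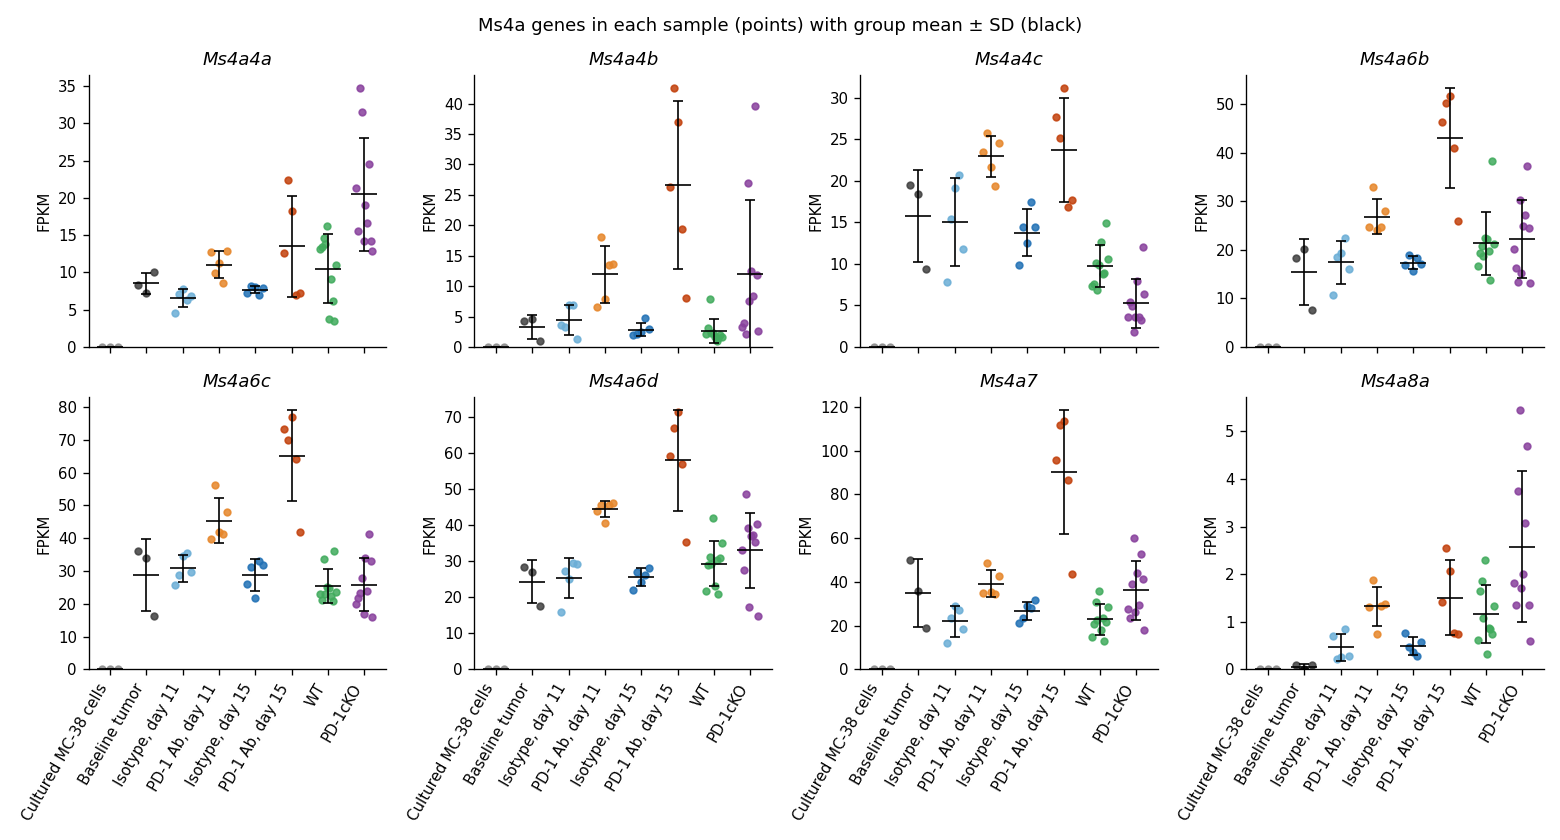
FPKM of the 8 genes in each of the 8 sample groups, with a vertical axis per gene that starts at 0. Points are samples, and black bars give the group mean and SD, cut at 0. The cultures lie at or near 0. Within the antibody study the highest Ms4a7 values (86.4 to 113 FPKM in 4 of 5 tumors) are in the PD-1 Ab day 15 group. In the tamoxifen study 8 of 10 Ms4a4c values in tumors labelled PD-1cKO are below every WT tumor.

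In isotype control tumors of day 15, Ms4a6c (28.7 ± 4.79 FPKM, SD, n = 5), Ms4a7 (26.7 ± 4.19) and Ms4a6d (25.5 ± 2.46) were the highest and did not differ beyond their spread. Ms4a6b (17.3 ± 1.31) and Ms4a4c (13.8 ± 2.80) followed and overlapped each other but not the first 3. Ms4a4a (7.69 ± 0.493) and Ms4a4b (2.86 ± 1.11) came next, each below every value of the gene before it. In WT tumors Ms4a6d (29.3 ± 6.35 FPKM, SD, n = 10), Ms4a6c (25.3 ± 5.22), Ms4a7 (22.9 ± 7.08) and Ms4a6b (21.3 ± 6.53) were above Ms4a4a (10.5 ± 4.62), Ms4a4c (9.75 ± 2.50), Ms4a4b (2.57 ± 1.98) and Ms4a8a (1.17 ± 0.615), and the ranges of all neighbours in this order overlapped.

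Tumors labelled baseline were compared with isotype control tumors of day 15, a comparison in which tumor age and dosing with the isotype control cannot be told apart. No member was called (0 of 7 in limma, with 0.595% of all genes called), and none of the 7 reached an unadjusted p under 0.05, which 17.7% of all genes did. The differences ran from -0.28 to 0.29 on the log2(FPKM + 0.1) scale. With 3 baseline tumors the intervals were wide, for example -1.10 to 1.07 (95%) for Ms4a4b, whose baseline values were 4.26, 4.61 and 0.960 FPKM.

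After 1 dose of PD-1 Ab, at day 11, all 8 members had a higher mean than under the isotype control, as had 88.3% of all tested genes, and none passed the test. The T cell gene Ms4a4b was at 6.64, 18.1, 7.90, 13.5 and 13.6 FPKM in treated tumors and at 3.69, 3.33, 6.99, 6.97 and 1.26 FPKM in controls. The lowest treated tumor lay within the controls, and the other 4 were above all of them. Ms4a6d, a macrophage gene, was at 44.0, 45.5, 40.5, 45.6 and 46.2 FPKM against 15.97, 27.3, 24.9, 29.5 and 29.1 FPKM, with no overlap. The log2 differences were 1.54 (SE 0.45, limma adjusted p 0.419) for Ms4a4b, 1.43 (SE 0.40, 0.392) for Ms4a8a and 0.84 (SE 0.20, 0.268) for Ms4a6d, and 0.55 to 0.88 for the other 5. A call needed at least a 2-fold difference with an adjusted p below 0.01, which 0 of the 8 members and 0 of 14556 genes (0%) met, while 8 of 8 members and 6.15% of genes had an unadjusted p under 0.05. The groups did not overlap for 5 members (Ms4a4a, Ms4a6b, Ms4a6c, Ms4a6d and Ms4a7), all higher, as for 3.59% of genes.

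The median difference over all tested genes at day 11 was 0.26, and it was 0.02 after median-of-ratios scaling of the samples, under which the members ran from 0.31 to 1.30. Isotype control replicate 1, the library with 54.6% mitochondrial FPKM, was the lowest control for Ms4a4a, Ms4a4c, Ms4a6b, Ms4a6c, Ms4a6d and Ms4a7. Without it still no member was called, and the adjusted p of Ms4a6d was 0.00246 with a difference of 0.68, below 2-fold. In the same comparison, the summed FPKM of 13 T cell markers was 11.2 to 44.1 in controls and 31.4 to 95.6 in treated tumors (median log2 difference 1.64), that of 16 macrophage and monocyte markers 363 to 1549 and 1562 to 2173 (median 0.84), and that of 6 mast cell markers 3.004 to 5.26 and 3.85 to 21.04 (median 1.70 over the 5 tested). None of these markers was called, with an unadjusted p under 0.05 for 12 of 13, 9 of 16 and 4 of 5 of those tested, and their part in the Ms4a differences was not tested.

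After 2 doses, at day 15, 5 of the 8 members were called higher in PD-1 Ab-treated tumors (limma, 5.03% of 15062 genes called higher) and 0 lower (0.272%). They were the T cell gene Ms4a4b, the macrophage gene Ms4a7 and the whole Ms4a6 branch. Ms4a4b was at 26.2, 42.6, 36.9, 19.4 and 8.08 FPKM in treated tumors and at 1.98, 2.23, 2.41, 4.75 and 2.96 FPKM in controls. Every treated tumor was above every control, with replicate 5 the lowest of the treated. The log2 difference was 3.03 (SE 0.40, adjusted p 0.00101, 8.19-fold on this scale), and 0.232% of all tested genes had a larger one.

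Ms4a7 was at 95.7, 112, 113, 86.4 and 43.7 FPKM in treated tumors and at 21.3, 23.7, 28.8, 28.2 and 31.7 FPKM in controls. Treated replicate 5 was again the lowest, above all controls. The difference was 1.69 (SE 0.23, adjusted p 0.00115). Ms4a7 was the most abundant member in treated tumors, at 27.7% ± 2.04 of the summed FPKM of the 8 genes against 21.7% ± 2.68 in controls (SD, n = 5 each). That sum was 322 ± 89.9 FPKM in treated tumors and 123 ± 12.96 FPKM in controls. Ms4a7 also had the largest mean share in baseline tumors (25.9% ± 3.70, SD, n = 3) and in tumors labelled PD-1cKO (22.8% ± 2.29, SD, n = 10).

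The 3 Ms4a6 genes had like differences. Ms4a6b was at 46.3, 50.2, 51.7, 40.9 and 26.0 FPKM in treated tumors against 15.6 to 18.96 FPKM in controls. Ms4a6c was at 73.3, 69.8, 76.8, 64.1 and 41.9 FPKM against 21.7 to 33.0, and Ms4a6d at 59.0, 66.9, 71.1, 57.0 and 35.2 FPKM against 21.9 to 28.2. In each of the 3, replicate 5 was the lowest treated tumor and no groups overlapped. The differences were 1.27 (SE 0.17, adjusted p 0.00102) for Ms4a6b, 1.16 (SE 0.17, adjusted p 0.00147) for Ms4a6c and 1.14 (SE 0.17, adjusted p 0.00147) for Ms4a6d.

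The other 3 members did not pass. Ms4a8a was at 1.41, 2.55, 2.07, 0.776 and 0.744 FPKM against 0.773, 0.469, 0.361, 0.277 and 0.587 FPKM (1.35, SE 0.38, adjusted p 0.0247). Ms4a4c was at 27.7, 25.1, 31.2, 16.9 and 17.7 FPKM against 9.90, 14.5, 12.5, 17.5 and 14.4 FPKM (0.76, SE 0.20, adjusted p 0.0178). In both, 4 of 5 treated tumors were above all controls. Without treated replicate 5, Ms4a8a passed (1.55, adjusted p 0.00919). Ms4a4a was at 12.7, 22.4, 18.2, 7.02 and 7.21 FPKM against 7.04 to 8.20 FPKM (0.65, SE 0.29, adjusted p 0.118), so that replicates 1 to 3 were above all controls and replicates 4 and 5 at their level. Groups without overlap were seen for the 5 called members, all higher, as for 9.23% of genes. Without the fold limit and with an adjusted p below 0.05, 7 of the 8 members were higher, as were 14.6% of genes.

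In bulk tissue, more cells of a type and more RNA per cell cannot be told apart. At day 15 the 13 T cell markers were all called higher (median log2 difference 2.47), and their summed FPKM was 18.1 to 35.3 in controls and 63.3 to 242 in treated tumors. Of 16 macrophage and monocyte markers, 13 were called higher (median 1.34), with sums of 1236 to 1681 FPKM in controls and 2044 to 5155 FPKM in treated tumors. The median of the 8 members was 1.22, and that of all tested genes -0.04. The part of these cells in the Ms4a differences was not tested. Of 6 mast cell markers 6 were called higher, while Ms4a2, the mast cell member of the family, stayed below the filter at 0.282 ± 0.185 FPKM (SD, n = 5).

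**Figure D2:**
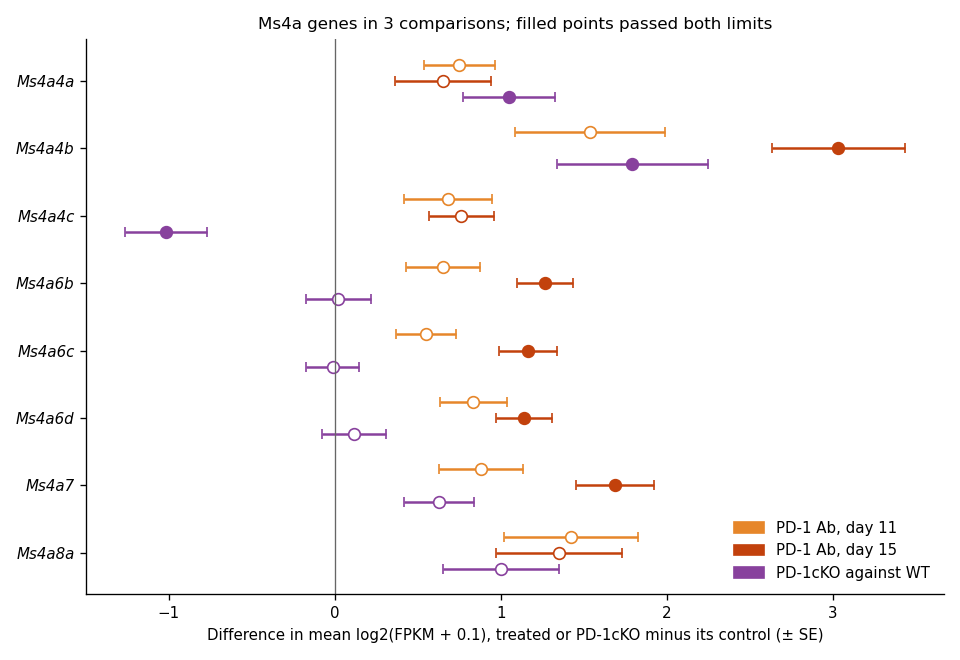
Difference in mean log2(FPKM + 0.1) for each of the 8 genes in the PD-1 Ab comparisons of day 11 and day 15 (5 against 5 tumors) and in the PD-1cKO comparison (10 against 10), with bars of 1 SE. Filled points passed both limits (2-fold, adjusted p below 0.01). At day 15 filled points run from 1.14 to 3.03, and in the PD-1cKO comparison Ms4a4c is filled at -1.01 while the Ms4a6 genes lie near 0.

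Whether the antibody difference itself grew between the times was tested as a contrast over the 4 groups. No member passed (0 of 8, with 0 of 15289 genes in limma, 0%). Of the members, 4 had an unadjusted p under 0.05, all with a larger difference at day 15, against 7.73% of all genes: Ms4a4b (1.496, SE 0.63), Ms4a7 (0.81, SE 0.36), Ms4a6b (0.62, SE 0.28) and Ms4a6c (0.61, SE 0.25), each with an adjusted p of 0.623. The median of this contrast over all tested genes was -0.27.

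The comparison of tumors labelled PD-1cKO with WT tumors asked which members differ when the gene for PD-1 is deleted in the host. Whether the WT littermates carried creERT2 is not given in the sources used here. Its presence therefore cannot be told apart from the deletion. Of the 8, 2 were called higher (Ms4a4a and Ms4a4b, with 4.2% of 15075 genes called higher) and 1 lower (Ms4a4c, with 3.87% called lower, and 8.07% called in either direction). The median over all genes was -0.20, and it was -0.01 after median-of-ratios scaling. That scaling moved the share of higher among all calls from 52.0% (633 of 1217) to 77.3% (965 of 1249).

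Ms4a4b ranged from 2.22 to 39.5 FPKM (median 8.04) in tumors labelled PD-1cKO and from 1.07 to 7.96 FPKM (median 2.12) in WT tumors. Of the 10 tumors labelled PD-1cKO, 5 were above every WT tumor. The difference was 1.79 (SE 0.46, adjusted p 0.00526). Ms4a4a, which encodes a macrophage surface protein that associates with the receptor Dectin-1, ranged from 12.9 to 34.8 FPKM (median 17.9) against 3.51 to 16.2 FPKM (median 12.0) in WT tumors. Here 6 of 10 tumors labelled PD-1cKO were above every WT tumor, and the difference was 1.05 (SE 0.28, adjusted p 0.00654).

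Ms4a4c went the other way. It ranged from 1.79 to 12.0 FPKM (median 4.27) in tumors labelled PD-1cKO and from 6.80 to 14.9 FPKM (median 9.40) in WT tumors, and 8 of the 10 were below every WT tumor, the exceptions being replicate 6 at 7.99 and replicate 9 at 12.0 FPKM. The difference was -1.01 (SE 0.25, adjusted p 0.00415), or 0.495-fold, and after median-of-ratios scaling it was -0.82 (adjusted p 0.00462), which keeps the direction but is under the 2-fold limit. As a share of the 8 genes, Ms4a4c made up 3.72% ± 2.18 of the FPKM in tumors labelled PD-1cKO and 8.06% ± 2.01 in WT tumors (SD, n = 10 each). Ms4a4d shares sequence with Ms4a4c but lies further along the cluster, beyond Ms4a4b, Ms4a6c and Ms4a6b. It was at 5.96 ± 2.16 FPKM in tumors labelled PD-1cKO and at 5.94 ± 1.13 FPKM in WT tumors (-0.04, SE 0.17).

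The Ms4a6 genes did not pass in the PD-1cKO comparison. Ms4a6b was at 13.2 to 37.3 FPKM (median 22.4) against 13.9 to 38.4 (median 20.3), with a log2 difference of 0.02 (95% interval -0.38 to 0.42). Ms4a6c was at 16.1 to 41.3 FPKM (median 23.7) against 20.9 to 36.1 (median 23.3), with a difference of -0.01 (-0.34 to 0.32), which median-of-ratios scaling turned to 0.18. Ms4a6d was at 14.8 to 48.7 FPKM (median 36.1) against 21.0 to 42.0 (median 29.7), at 0.12 (-0.28 to 0.51). The intervals exclude a 2-fold change in either direction for all 3 on the deposited scale. Ms4a7, at 18.1 to 60.2 FPKM (median 34.3) against 12.9 to 35.7 (median 22.3), differed by 0.63 (SE 0.21, adjusted p 0.022), and Ms4a8a, at 0.605 to 5.44 FPKM (median 1.91) against 0.321 to 2.30 (median 0.983), by 1.00 (SE 0.35, adjusted p 0.0261). Without the fold limit, 5 members and 43.6% of all genes had an adjusted p below 0.05.

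In this comparison too, the 13 T cell markers were all called higher (median 1.69, summed FPKM 45.6 to 216 against 18.5 to 63.5 in WT). Of the 16 macrophage and monocyte markers 7 were called higher (median 1.00, sums 1902 to 6515 against 1160 to 1993 FPKM). Their differences ran from -0.75 to 1.95, with 14 of 16 above 0. Of 6 neutrophil markers tested 4 were called higher, and of 6 fibroblast markers 4. The part of all these cells in the Ms4a differences was not tested. The sample identifiers fell into 3 runs, with 7 tumors labelled PD-1cKO and 0 WT tumors in run 1, 1 and 9 in run 2, and 2 and 1 in run 3. A run is a stretch of nearby identifier numbers, and what it stands for is not given in the sources used here. In run 2 the tumor labelled PD-1cKO was at 39.5 FPKM for Ms4a4b, 24.5 for Ms4a4a and 3.28 for Ms4a4c, each outside the 9 WT values (1.07 to 7.96, 3.51 to 16.2 and 6.80 to 14.9). In run 3 the pair of tumors labelled PD-1cKO was at 2.69 and 11.9 FPKM for Ms4a4b against 1.59 in WT, at 12.9 and 14.2 against 11.0 for Ms4a4a, and at 6.42 and 12.0 against 10.6 for Ms4a4c. With the run as a covariate the differences were 3.09 (adjusted p 0.0257) for Ms4a4b, 0.94 (0.16) for Ms4a4a and -0.97 (0.0754) for Ms4a4c, and no member and no gene was called. Run 1 held no WT tumor, so run and genotype can be told apart only in part, through the few tumors that share runs 2 and 3. Leaving out 1 tumor at a time kept all 3 directions, with log2 differences of 0.90 to 1.14 for Ms4a4a, 1.54 to 1.995 for Ms4a4b and -1.16 to -0.87 for Ms4a4c, but the calls were lost in 9, 4 and 8 of the 20 cases, and all 3 of them without replicate 4 labelled PD-1cKO or without WT replicate 6.

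**Figure D3:**
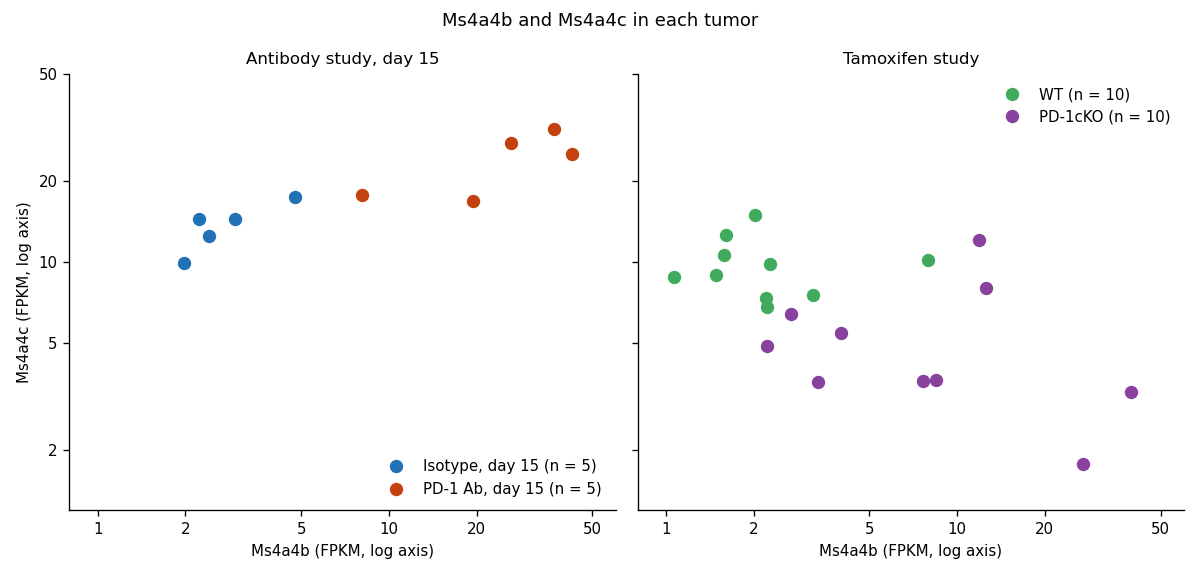
Ms4a4b (horizontal, FPKM) against Ms4a4c (vertical, FPKM) in each tumor on log axes, for day 15 of the antibody study (5 and 5 tumors) and for the tamoxifen study (10 and 10). Treated tumors of day 15 lie to the right of their controls with Ms4a4c between 16.9 and 31.2 FPKM, whereas tumors labelled PD-1cKO spread to the right with Ms4a4c mostly below the WT tumors, down to 1.79 FPKM.

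The antibody difference of day 15 was set against the PD-1cKO difference in 1 contrast over the 4 groups. None of the 8 members passed both limits (0.0914% of 16404 genes did). At an adjusted p under 0.05, Ms4a4c (1.78, SE 0.39, adjusted p 0.0276) and Ms4a6c (1.18, SE 0.26, adjusted p 0.0336) had more positive differences under the antibody, as 0.573% of genes passed this limit. The Ms4a6c value is uncertain because of the overlap with BE692007. At day 15 the median of BE692007 was 19.2% of the Ms4a6c FPKM in isotype control tumors and 22% in treated tumors. It was 1.04% in WT tumors and 4.87% in tumors labelled PD-1cKO, and its part in the contrast was not tested. For the other members the contrast was 1.24 (SE 0.31, adjusted p 0.052) for Ms4a6b, 1.24 (SE 0.74, 0.387) for Ms4a4b, 1.06 (SE 0.36, 0.17) for Ms4a7, 1.03 (SE 0.30, 0.11) for Ms4a6d, 0.35 (SE 0.58, 0.774) for Ms4a8a and -0.40 (SE 0.47, 0.674) for Ms4a4a. The median over all tested genes was 0.23, and after median-of-ratios scaling (median 0.04) Ms4a4c was at 1.58 (adjusted p 0.0327) and Ms4a6c at 0.97 (adjusted p 0.119). The studies also differ in antibody, tamoxifen, time and RNA makeup, which cannot be told apart from the mode of PD-1 loss.

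How the members varied from tumor to tumor was described after subtracting group means from log2(FPKM + 0.1) in the 43 tumors, which share libraries and cell makeup across genes, so that no test was made. Over the 28 pairs of members, Pearson's r ran from -0.33 to 0.85 (median 0.48). The highest was between Ms4a6b and Ms4a6c (0.85), followed by Ms4a6d and Ms4a7 (0.82). Ms4a4b and Ms4a4c, the closest in sequence, had an r of 0.08, and the lowest r was between Ms4a4c and Ms4a8a. The mean of the T cell markers had an r of 0.84 with Ms4a4b, and that of the macrophage and monocyte markers an r of 0.79 with Ms4a7, 0.77 with Ms4a6b and 0.03 with Ms4a4c. Without isotype control day 11 replicate 1 these were 0.89, 0.78, 0.76 and -0.18. The marker lists themselves ran together (0.82 between the T cell and the macrophage and monocyte list), and Ms4a7 had an r of 0.75 with each of the T cell, regulatory T cell and dendritic cell lists, and Ms4a6b 0.72 with the dendritic cell and 0.69 with the T cell list.

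**Figure D4:**
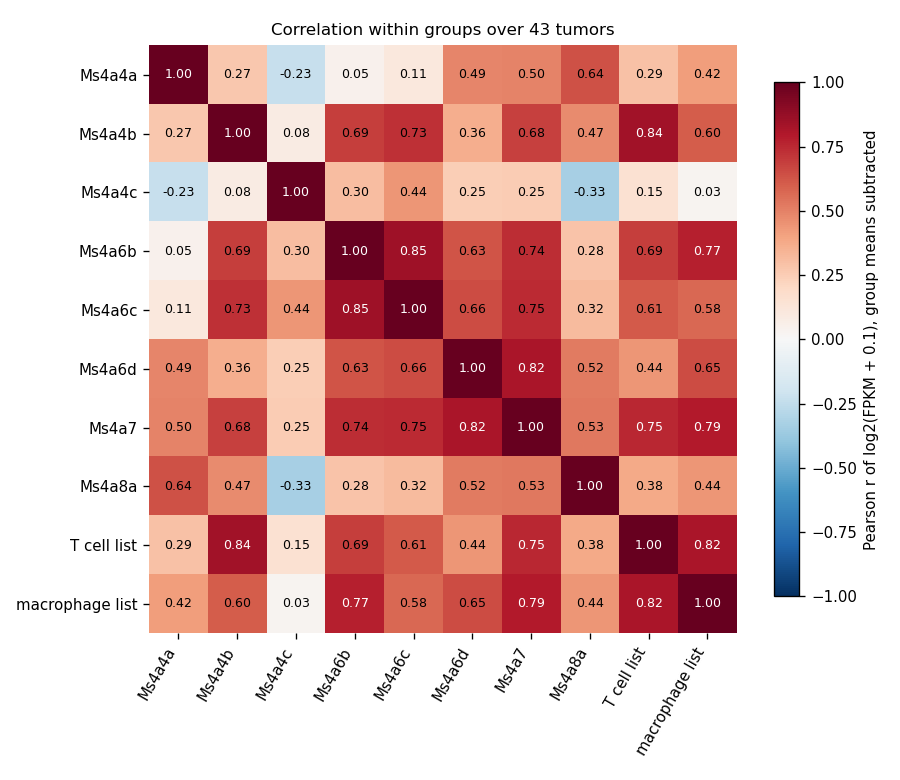
Pearson's r of log2(FPKM + 0.1) after subtracting group means, over 43 tumors, for the 8 genes and the means of the T cell and the macrophage and monocyte marker lists. Colors run from blue (-1) to red (1). Ms4a4c has values of at most 0.44 with any other row, and Ms4a4b reaches 0.84 with the T cell list.

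The genes most like each member by this measure, among 13192 with a mean of at least 1 FPKM, were as follows. The genes most like Ms4a4b included Klrd1 (r 0.90), a chain of NK cell receptors, and Gimap3 (0.90), a lymphocyte GTPase. Ms4a7 was most like the lysosomal protease gene Ctss (0.91), the tetraspanin gene Cd53 (0.90) and Slc28a2 (0.86). Ms4a4a was most like Mrc1 (0.79), which encodes the macrophage mannose receptor, the chemokine gene Ccl8 (0.78) and the inhibitory Fc receptor gene Fcgr2b (0.78).

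Ms4a4c was most like Cd72 (0.82), Klrb1b (0.82) and Gk (0.81). In the Ms4a6 branch, Ms4a6b was most like Arl6ip1 (0.87), the NADPH oxidase gene Cybb (0.87) and Clec4a2 (0.86), those most like Ms4a6c included the RNA sensor gene Tlr13 (0.89) and Naip2 (0.84), and Ms4a6d was most like the complement receptor gene C3ar1 (0.78), Emb (0.77) and Plek (0.77). Ms4a8a was most like Ccl6 (0.79), F13a1 (0.78) and Gda (0.77). Leaving out 1 tumor group at a time kept 8 to 21 of the 24 genes, 3 for each member, with 8 when the tumors labelled PD-1cKO were left out.

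Of the 11 other Ms4a genes, 8 had a mean under 0.5 FPKM in every group, and Ms4a4d, Ms4a14 and Ms4a1 reached it in at least 1. Of these 3, Ms4a4d and Ms4a14 were tested at day 11 and in the PD-1cKO comparison and all 3 at day 15, and none was called. Ms4a4d was at 14.5 ± 2.13 FPKM after 2 doses of PD-1 Ab and at 7.90 ± 1.97 in controls (SD, n = 5 each), a log2 difference of 0.89 (SE 0.18, adjusted p 0.00651) under the 2-fold limit, with no overlap. Ms4a14 was at 4.20 ± 2.29 against 1.01 ± 0.586 FPKM (1.92, SE 0.52, adjusted p 0.0216). The B cell gene Ms4a1 was at 0.592 ± 1.18 against 0.148 ± 0.237 FPKM, with 1 treated tumor at 2.70 FPKM.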

How the data were processed

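The authors prepared stranded total RNA libraries after ribosomal RNA depletion, aligned read pairs of 50 bases to the mouse B38 genome in Omicsoft Array Studio (OSA) and deposited FPKM per Ensembl gene. The paper gives a range of mapped reads over all samples, so the depth of each library is unknown. Of the gene identifiers, 99.1% were matched to GENCODE M21. Groups came from the sample labels. No source used here says that samples were pooled, and p-values weigh a group difference against the spread between these samples.

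Genes were kept where either group averaged 0.5 FPKM or more. Their log2(FPKM + 0.1) entered limma 3.58.1 (R 4.3.3; eBayes with a trend) with only the groups compared, and p-values were adjusted over all genes tested (Benjamini-Hochberg). Calls needed at least a 2-fold difference with an adjusted p below 0.01. The code was tested on simulated data. Alternatives were 1 FPKM added, a filter at 1 FPKM or none, 2 scalings, no trend, all tumors in 1 fit, a replicate block, the identifier run, other limits and leaving out each replicate. The highest correlation between samples was 0.996, so none was counted as a copy of another.

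The members and the marker lists were chosen with earlier results of these data known. Named besides them are the other Ms4a and Tmem176 genes and, per member, the 3 genes with the highest r, of which some are not reported here. Sequences were compared with Biopython 1.88 (match 1, mismatch -1, gap opening -3, extension -0.5), and tables and plots were made with Python 3.11.15, numpy 2.4.6, pandas 2.3.3 and matplotlib 3.10.9.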

Additional observations from a re-analysis of the deposited data

Results flagged for a closer look

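Of 48 sets of values examined (8 genes in 6 groups of 5 or 10 tumors), 2 held a tumor that stood far from its group, where chance gives about 1 in 20. Ms4a4b was 7.96 FPKM in WT replicate 3, against 1.07 to 3.19 FPKM in the other 9 WT tumors. Ms4a6b was 38.4 FPKM in WT replicate 9, against 13.9 to 22.5 FPKM in the others. For 2 genes the antibody difference of day 15 and the PD-1cKO difference were unlike in the contrast over both studies (limma, adjusted p under 0.05). The contrast was 1.78 for Ms4a4c and 1.18 for Ms4a6c on the log2 scale, with adjusted p of 0.0276 and 0.0336, and over the alternatives the p ran from 0.00444 to 0.0913 for Ms4a4c and from 0.00654 to 0.119 for Ms4a6c. The Ms4a6c value is uncertain because the share of the overlapping gene BE692007 differed between these groups.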

How the results depend on the processing

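The count of members called at day 15 was 4 to 7 over 20 alternatives, and at day 11 it was 0 in all 20. For PD-1cKO against WT the main count of 3 was 1 with 1 FPKM added, 0 with no filter, 0 with the identifier run as a covariate and 5 at an adjusted p under 0.05 with no fold limit. Leaving out 1 tumor gave 0 to 4, with 0 without PD-1cKO replicate 4 or WT replicate 6, and 1 without PD-1cKO replicates 1, 7 or 8 or WT replicates 7, 9 or 10. For the contrast between studies the count of 0 was 2 at an adjusted p under 0.05 with no fold limit, and 0 to 1 with a tumor left out (1 without PD-1 Ab day 15 replicate 5 or PD-1cKO replicate 9). The cause was not tested. Calls over all genes ran from 316 to 1534 (main 799; 1534 without PD-1 Ab replicate 5) at day 15, from 0 to 1871 (main 1217) for PD-1cKO, from 0 to 10 (main 0; 7 without isotype control replicate 1) at day 11, from 1 to 166 (main 89) for baseline and from 0 to 55 (main 15) for the contrast between studies.

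Some values near 0 changed sign. For PD-1cKO, Ms4a6c was 0.18 after median-of-ratios scaling, 0.12 at an equal sum of protein-coding genes and 0.40 with the run, where Ms4a6d was -0.032. With a tumor left out, Ms4a6b was -0.068 to 0.12 and Ms4a6c -0.093 to 0.058. For baseline tumors Ms4a4b was 0.043 with 1 FPKM added and 0.00016 at an equal sum, and with a tumor left out Ms4a4b was -0.39 to 0.68, Ms4a4c -0.043 to 0.48, Ms4a6b -0.54 to 0.15, Ms4a6c -0.28 to 0.30, Ms4a6d -0.22 to 0.12 and Ms4a7 -0.027 to 0.67. For day 15 minus day 11, Ms4a8a was 0.030 with 1 FPKM added, 0.20 after median-of-ratios scaling and 0.18 at an equal sum, Ms4a4a was 0.19 in both scalings, and with a tumor left out Ms4a4a was -0.32 to 0.10, Ms4a4c -0.058 to 0.29 and Ms4a8a -0.30 to 0.12.

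The replicate numbers paired no samples: same-numbered tumors had correlations of -0.21 to 0.16, over 0.1 in 1 of 5 pairs at day 11, 0 of 5 at day 15 and 1 of 10 in the PD-1cKO comparison. With the replicate number as a block, 4 members were called at day 15, 2 for PD-1cKO and 0 at day 11, and the calls over all genes at day 15 were 316. In the baseline comparison the block gave 0.28 for Ms4a4b and 0.059 for Ms4a6c.

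Depth limits the low members most, since Ms4a8a was under 1 FPKM in most control tumors and its change is understated on the log2(FPKM + 0.1) scale.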
